A study of Mus musculus with 6 samples.

Results

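The genes of 8 matricellular proteins were measured in mouse embryonic fibroblasts early in reprogramming. They were Postn (periostin), Sparc, Thbs1 and Thbs2 (thrombospondins), Tnc (tenascin C), Wisp1, Ctgf and Cyr61 (the CCN family), taken by name from the deposited expression table. All 8 were found among its 18303 genes, each on 1 line, and all 8 were among the 11939 genes that were expressed highly enough to be tested. RNA of 6 libraries was sequenced on day 2 of reprogramming, from fibroblasts of the strain CBA/CaJ X C57BL/6J grown in the defined medium iCD1. The control group, shLuc, held 2 libraries with a short hairpin RNA (shRNA) against luciferase, in medium with ethanolamine (Etn). In the same medium, shEtnk1/2 cells carried shRNAs against both ethanolamine kinases, shPcyt2 cells an shRNA against Pcyt2, the cytidylyl-transfer enzyme that follows them, and shPebp1 cells an shRNA against phosphatidylethanolamine-binding protein 1. The Etn-deprived group carried shLuc in iCD1 lacking Etn. These 4 treated groups held 1 library each. How the reprogramming factors were delivered, and whether the shLuc libraries came from separate cultures, is not given in the sources used here, so the spread between these 2 libraries, on which the comparisons of single libraries rest, may be technical. No spread within a treated group was measured.

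Matricellular proteins are secreted into the extracellular matrix, where they bind structural fibres, growth factors and cell-surface receptors and alter how cells attach, without bearing load as collagen does. Fibroblasts make them in wounds, tendon, bone and fibrotic tissue, and several are induced by TGF-beta or by mechanical strain. The CDP-ethanolamine pathway makes phosphatidylethanolamine from Etn, and the study asked how blocking it affects the change of fibroblasts from a mesenchymal to an epithelial state early in reprogramming. In these bulk samples, more cells that express a gene and more RNA per cell cannot be told apart.

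The sequence before the transcription start was read for members that RefSeq's promoter table (build GRCm38.p6) holds at the start used in the deposited table, which were 5 of the 8. Postn, Tnc and Cyr61 are shown because Postn and Tnc had the most similar profile over the libraries and Cyr61 stands for the CCN family. Each line gives the 250 bases before the start, on the strand of the gene. Capitals mark matches to TATAAA (the TATA box core) or GGAATG (the core bound by TEAD factors, with which YAP and TAZ work), on either strand.
Postn: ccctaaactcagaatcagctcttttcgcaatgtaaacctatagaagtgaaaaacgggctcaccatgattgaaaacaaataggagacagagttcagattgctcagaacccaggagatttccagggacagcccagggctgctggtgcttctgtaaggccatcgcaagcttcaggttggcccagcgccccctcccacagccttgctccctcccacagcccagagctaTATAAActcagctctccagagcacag
Tnc: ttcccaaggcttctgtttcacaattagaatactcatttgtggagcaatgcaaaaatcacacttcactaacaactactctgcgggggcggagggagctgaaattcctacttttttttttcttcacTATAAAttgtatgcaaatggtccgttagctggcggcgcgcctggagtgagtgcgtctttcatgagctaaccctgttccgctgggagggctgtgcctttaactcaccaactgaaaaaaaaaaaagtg
Cyr61: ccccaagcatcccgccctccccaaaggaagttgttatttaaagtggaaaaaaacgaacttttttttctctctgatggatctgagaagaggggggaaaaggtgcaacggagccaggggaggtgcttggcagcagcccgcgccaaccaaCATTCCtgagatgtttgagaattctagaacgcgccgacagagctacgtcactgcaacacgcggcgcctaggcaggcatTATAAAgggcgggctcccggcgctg
The Postn window is chr3:54360857-54361106 on the plus strand, the Tnc window chr4:64047016-64047265 on the minus strand, and the Cyr61 window chr3:145649986-145650235 on the minus strand. Counted back from the start, the TATAAA match lay at -26 to -21 in Postn, at -25 to -20 in Cyr61 and at -126 to -121 in Tnc. The Cyr61 window also held GGAATG on the other strand, printed as CATTCC, at -103 to -98. The Thbs2 window, not shown, held TATAAA on the other strand at -126 to -121. Among the 5 windows, 4 held TATAAA and 1 held GGAATG, while 12.4% and 12.6% of all 32851 windows of this length did. These counts take a match anywhere in the window on either strand, so they are not counts of TATA boxes. None of the 5 held TGANTCA (the AP-1 site, in 6.75% of all windows) or the CArG box bound by SRF (in 1.47%). The motifs did not overlap in these windows, and a match describes letters only.

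The expression table gives RPKM, read counts scaled by the authors to the length of the gene model and the size of the library. The libraries held 18467583 to 20020465 reads in genes, and 640 to 103206 reads lay behind each value of a member. All 11 fibroblast markers had a mean of at least 1 RPKM. Under it lay 6 of 7 endothelial markers (all but Tek), 4 of the 7 macrophage markers in the table (Ptprc, Emr1, Csf1r and Itgam) and 5 of 7 cartilage markers. Other lists reached it in part, with 5 of 6 smooth muscle, 4 of 7 neural and glial, 3 of 6 skeletal muscle and 2 of 6 keratinocyte markers. Some markers of other cell types were well expressed, among them Acta2 (mean 233 RPKM), Stmn2 (44.9), Lyz2 (43.0), Tek (22.2) and Col2a1 (18.1). The targeted gene Etnk1 had 12.5 RPKM in shEtnk1/2 against 21.0 and 21.4 in shLuc. Etnk2 was hardly expressed in any library, from 0.333 in shEtnk1/2 to 1.00 RPKM. Pcyt2 had 29.9 RPKM in shPcyt2 against 42.0 and 40.05 in shLuc. It was also under both shLuc values in Etn-deprived (33.5), shEtnk1/2 (35.6) and shPebp1 (38.3). Pebp1 was measured at 99.6 RPKM in shPebp1 against 250.4 for shLuc replicate 1. The library labelled shLuc replicate 2 had 100.7 RPKM of Pebp1 and so goes against its label for this gene. The spread on which the comparisons of single libraries rest comes from the pair that holds that library. Whether this pair replicates a single condition was not tested. The members' differences from shLuc are given with and without that library.

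Levels of the 8 genes spanned from abundant to moderate. Sparc, which encodes a collagen-binding protein of bone and basement membranes, ranked 11 of the 11939 tested genes by mean RPKM, followed among the members by Thbs1 (rank 138), Postn (220), Thbs2 (343), Cyr61 (613), Tnc (679), Wisp1 (2913) and Ctgf (4733). Together they took 0.839% of all reads in genes in shLuc replicate 1 (95% Wilson interval 0.835 to 0.843%) and 0.819% (0.815 to 0.823%) in replicate 2. Their share was 1.15% (1.14 to 1.15%) in shEtnk1/2, 0.931% (0.927 to 0.935%) in shPcyt2, 0.918% (0.914 to 0.923%) in Etn-deprived and 0.757% (0.753 to 0.761%) in shPebp1. These intervals cover counting error only. The highest share was in shEtnk1/2 and the lowest in shPebp1, with the shLuc libraries next to shPebp1.

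Each of the 8 genes had its highest value in the shEtnk1/2 library, where 12% of all tested genes had theirs. Lowest was shPebp1 for 6 members (11.8% of tested genes), with shLuc replicate 2 lowest for Thbs2 (10.8%) and shLuc replicate 1 for Wisp1 (11%). All 8 lay above both shLuc libraries in shEtnk1/2 (25% of tested genes did) and in shPcyt2 (29%), and 7 did in Etn-deprived (36%). In shPebp1, 6 lay below both (31.7%) and none above (36.6%). These comparisons share the shLuc libraries.

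**Figure D1:**
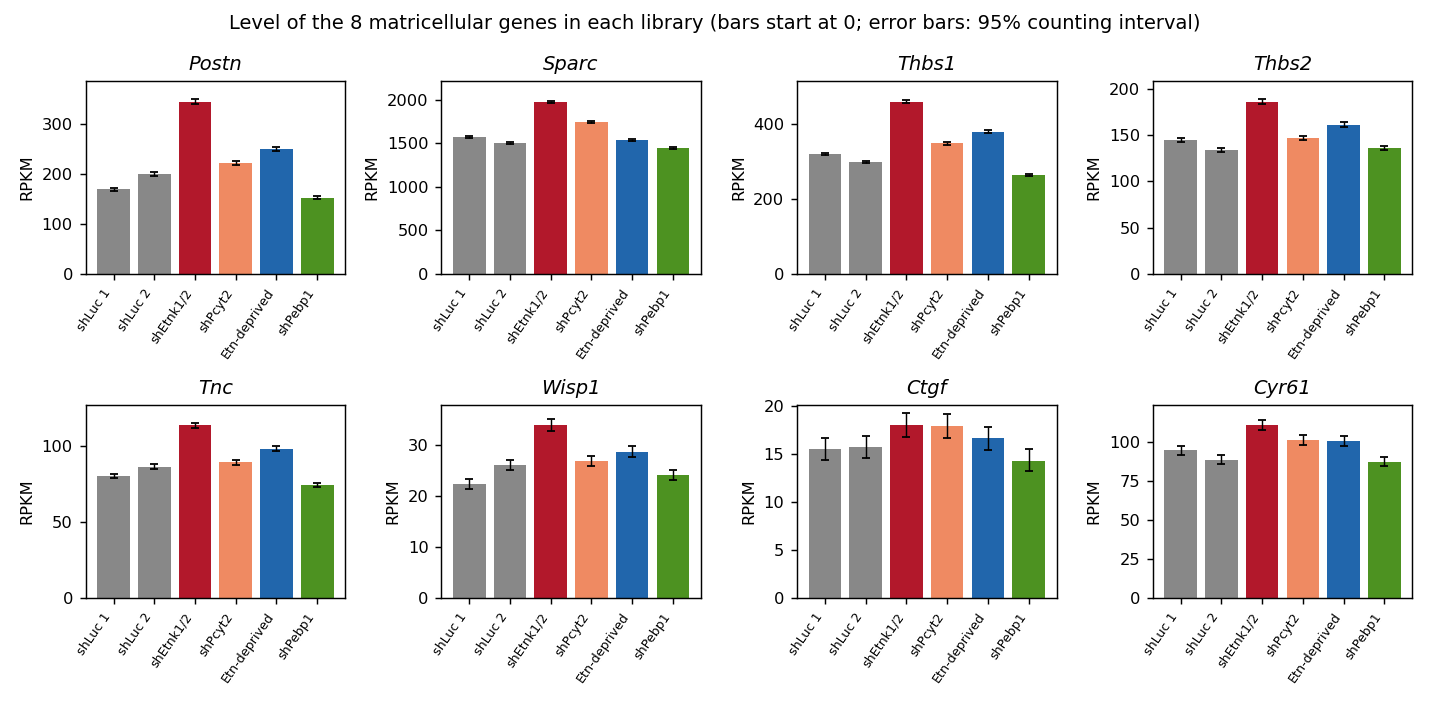
RPKM of the 8 genes (y axes, starting at 0) in the 6 libraries (x axes), 1 bar per library with its 95% Poisson counting interval. The red shEtnk1/2 bar is the highest in all 8 panels, from 17.97 RPKM for Ctgf to 1978 for Sparc, and the green shPebp1 bar is the lowest in 6.

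The first comparison concerned the ethanolamine kinases, which open the pathway. In shEtnk1/2 Postn, Sparc, Thbs1, Thbs2, Tnc and Wisp1 rose, and Ctgf and Cyr61 did not pass the test. Thus 6 of the 8 members were called higher, where 1.09% of all tested genes were (3.46% in either direction). The median log2 difference of the members was 0.43 against -0.06 over all tested genes. The call is limma's, on log2(RPKM + 1), with p adjusted over all tested genes and the spread taken from the shLuc pair.

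Postn encodes a fasciclin-domain protein that binds integrins and helps collagen to crosslink. It had 169.7 and 201 RPKM in shLuc replicates 1 and 2, 346 in shEtnk1/2, 222 in shPcyt2, 249.9 in Etn-deprived and 153 in shPebp1. The shLuc values lay 1.18-fold apart, and every pathway library stood above them. In shEtnk1/2 the level was 187% of the shLuc mean (log2 difference 0.90, SE 0.10, adjusted p = 0.0141), rank 18 among all tested genes by difference. The gene lies on chromosome 3 (54361107 to 54391041, plus strand, mm10) with a model length of 3295 nt. Against replicate 1 and replicate 2 alone the difference was 1.02 and 0.78.

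The thrombospondins bind CD47, CD36 and integrins, and thrombospondin 1 can activate latent TGF-beta. Thbs1 (chromosome 2, 118111922 to 118127133) had 320.5 and 299 RPKM in shLuc, 460.1 in shEtnk1/2, 349 in shPcyt2, 379.8 in Etn-deprived and 265 in shPebp1. Its shEtnk1/2 value was 149% of the shLuc mean, with the lowest adjusted p of the members (0.57, SE 0.07, adjusted p = 0.00299). Thbs2 (chromosome 17, 14665500 to 14694262) had 145 and 134 RPKM in shLuc, 186 in shEtnk1/2, 147 in shPcyt2, 161 in Etn-deprived and 136 in shPebp1. It rose to 133% of the shLuc mean in shEtnk1/2 (0.41, SE 0.07, adjusted p = 0.0163). Both genes thus had shEtnk1/2 highest and Etn-deprived next.

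Tenascin C is a hexameric glycoprotein of embryonic and wounded tissue that weakens the attachment of cells to fibronectin. Tnc (chromosome 4, 63959785 to 64047015) had 80.2 and 86.3 RPKM in shLuc, 113 in shEtnk1/2, 89.1 in shPcyt2, 98.0 in Etn-deprived and 74.1 in shPebp1. Its level in shEtnk1/2 was 136% of the shLuc mean (0.44, SE 0.07, adjusted p = 0.0132). Sparc (chromosome 11, 55394159 to 55420080) had 1569 and 1508 RPKM in shLuc, 1978 in shEtnk1/2, 1742 in shPcyt2, 1534 in Etn-deprived and 1442 in shPebp1. It rose to 129% (0.36, SE 0.06, adjusted p = 0.0109). Sparc was the one member whose Etn-deprived value lay between the shLuc values.

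The CCN proteins share an IGF-binding-like, a von Willebrand type C, a thrombospondin-like and, in most, a cystine-knot module, and they bind integrins and heparan sulphate. Wisp1, first known as a Wnt target (chromosome 15, 66891393 to 66923199), had 22.4 and 26.1 RPKM in shLuc, 33.9 in shEtnk1/2, 26.8 in shPcyt2, 28.7 in Etn-deprived and 24.1 in shPebp1. It rose to 139.8% in shEtnk1/2 (0.47, SE 0.10, adjusted p = 0.043), but was not called after quantile normalization (adjusted p = 0.0622) or with the length trend removed (adjusted p = 0.0699). Cyr61 (chromosome 3, 145646971 to 145649985), a quickly induced target of YAP and TAZ, had 94.4 and 88.5 RPKM in shLuc, 110.5 in shEtnk1/2, 100.9 in shPcyt2, 100.6 in Etn-deprived and 87.3 in shPebp1. The shEtnk1/2 value was 121% of the shLuc mean (0.27, SE 0.07, adjusted p = 0.0735). Ctgf (chromosome 10, 24595442 to 24598682), induced by TGF-beta and by YAP and TAZ, had 15.5 and 15.7 RPKM in shLuc, 17.97 in shEtnk1/2, 17.9 in shPcyt2, 16.6 in Etn-deprived and 14.3 in shPebp1. Its shEtnk1/2 difference of 0.19 (SE 0.09, 95% interval -0.016 to 0.40, adjusted p = 0.296) was the smallest of the members, and its values rest on 640 to 853 reads. RefSeq places a long non-coding RNA gene over part of Ctgf (Gm15270) and of Tnc (8030451A03Rik), and without a stated strand setting reads from such pairs cannot be told apart.

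With shLuc replicate 1 or replicate 2 left out, and the spread estimated over the remaining pathway libraries, no member was called in shEtnk1/2 (4 members at an unadjusted p under 0.05 without replicate 2, and 3 without replicate 1), though all 8 stayed above either library alone. Against replicate 1 alone the other differences were 0.33 for Sparc, 0.52 for Thbs1, 0.36 for Thbs2, 0.50 for Tnc, 0.58 for Wisp1, 0.22 for Cyr61 and 0.20 for Ctgf, with a median of 0.43. Without the filter on low values limma called no gene at all, while limma-voom on recovered reads called 7 members, the same 6 and Cyr61. Replication in that limma-voom fit also comes from the shLuc pair alone. Its lower adjusted p for Cyr61 therefore adds no measure of spread within a treatment.

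**Figure D2:**
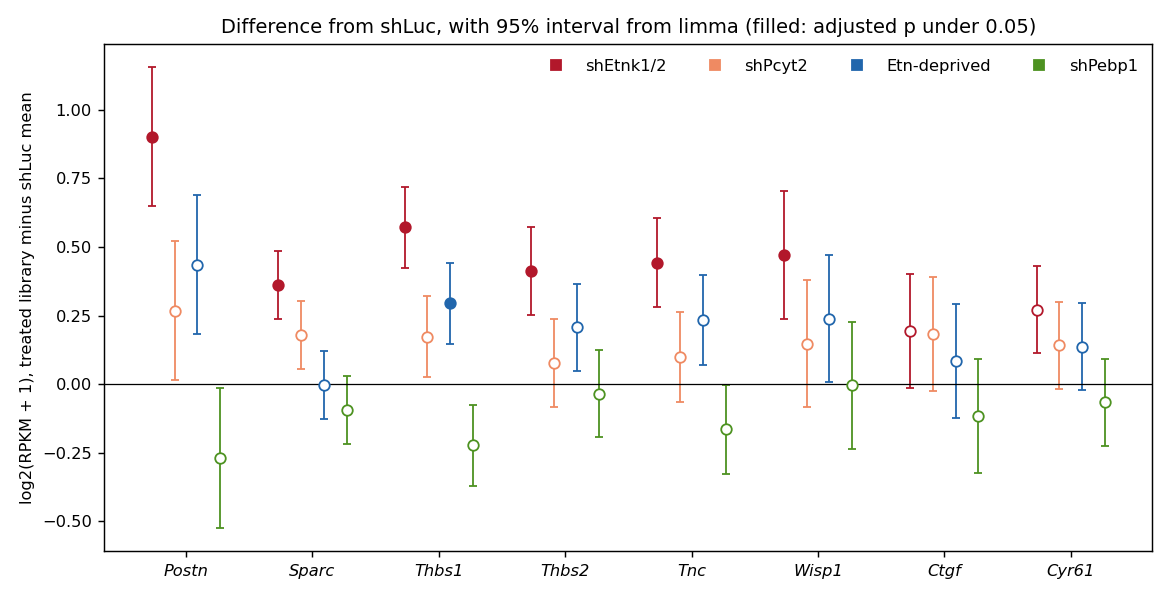
Log2 difference of each of the 8 genes (x axis) from the shLuc mean (y axis, log2(RPKM + 1) units) in the 4 treated libraries, with the 95% interval from limma. Filled points passed an adjusted p of 0.05: 6 genes in shEtnk1/2 (red) and Thbs1 in Etn-deprived (blue), while all 8 green shPebp1 points lie at or below 0.

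The Etn-deprived library asked what removing the substrate of the pathway does. Thbs1 rose, to 123% of the shLuc mean (0.30, SE 0.07, adjusted p = 0.0398), and was the only member called, where 0.586% of tested genes were called higher (3.8% in either direction). Postn stood at 135% (0.44, SE 0.10, adjusted p = 0.0897), Wisp1 at 118% (0.24), Tnc at 118% (0.23) and Thbs2 at 115% (0.21). Cyr61 stood at 110.0% (0.14), Ctgf at 106% (0.08) and Sparc at 99.7% of the shLuc mean (log2 difference -0.0037, 95% interval -0.13 to 0.12). The members' median difference was 0.22 against -0.01 over all tested genes. Long genes had higher values in this library, with a median of 0.01 for genes of 2000 nt and over and -0.09 for shorter ones, and all 8 members were at least 2028 nt long. With the length trend removed Thbs1 was not called, nor without either shLuc library or with another scaling, and limma-voom called Postn, Thbs1, Thbs2 and Tnc. Against shLuc replicate 1 alone Postn differed by 0.56, Wisp1 by 0.35, Tnc by 0.29, Thbs1 by 0.24 and Thbs2 by 0.15, while Ctgf, Cyr61 and Sparc had 0.095, 0.091 and -0.032.

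For Pcyt2, the enzyme after the kinases, the shPcyt2 library was set against shLuc. No member passed the limma test, where 0.109% of tested genes were called (0.0503% higher), 3 members had an unadjusted p under 0.05 and limma-voom called 1 (Postn). Postn was at 120% of the shLuc mean (0.27, SE 0.10, adjusted p = 0.836), Ctgf at 114% (0.18), Sparc and Thbs1 at 113% (0.18 and 0.17), Wisp1 at 111% (0.15) and Cyr61 at 110.4% (0.14). Tnc was at 107% (0.10) and Thbs2 at 105% (0.08), with 95% intervals of -0.06 to 0.26 and -0.08 to 0.24. The median over the members was 0.16, beside -0.02 over all tested genes. Against shLuc replicate 1 alone Postn differed by 0.39, Wisp1 by 0.25, Ctgf by 0.19, Sparc and Tnc by 0.15, Thbs1 by 0.12, Cyr61 by 0.095 and Thbs2 by 0.021. Etn-deprived had the higher value of these libraries for Postn, Thbs1, Thbs2, Tnc and Wisp1, and shPcyt2 for Sparc, Ctgf and Cyr61. Counting intervals overlapped for Wisp1, Ctgf and Cyr61 (100.9 RPKM in shPcyt2 and 100.6 in Etn-deprived). The first group had gene models of 3295 to 7100 nt and the second of 2028 to 2641 nt. Medians of genes of 2000 nt and over and of shorter ones were -0.03 and 0.02 in shPcyt2, against 0.01 and -0.09 in Etn-deprived. The part of length in this order was not tested. Of tested genes 51.2% were higher in Etn-deprived, and the difference between these libraries was not tested.

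The shPebp1 library addressed Pebp1, which binds phosphatidylethanolamine. No member passed the limma test, where 0.101% of tested genes were called (0.0921% lower), 3 had an unadjusted p under 0.05 and limma-voom called none. Postn was at 82.6% of the shLuc mean (-0.27, SE 0.10, adjusted p = 0.824), Thbs1 at 85.6% (-0.22, SE 0.07, adjusted p = 0.559) and Tnc at 89.1% (-0.16). Ctgf was at 91.7% (-0.12), Sparc at 93.7% (-0.09), Cyr61 at 95.4% (-0.07), Thbs2 at 97.6% (-0.03) and Wisp1 at 99.4% (-0.0041). The median over the members was -0.11, beside 0.01 over all tested genes. The library labelled shLuc replicate 2 held as little Pebp1. Against shLuc replicate 1 alone Thbs1 differed by -0.27, Postn by -0.15, Sparc by -0.12, Cyr61, Tnc and Ctgf by -0.11, Thbs2 by -0.091 and Wisp1 by 0.10, and no member was called.

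The shEtnk1/2, shPcyt2 and Etn-deprived libraries were also set against shLuc as 1 group of 3. All 3 pathway libraries lay above both shLuc libraries for 7 members (all but Sparc), as they did for 7.82% of tested genes. None of the members passed the limma test, where 0% of tested genes were called, 5 had an unadjusted p under 0.05 and limma-voom called none. Postn had a difference of 0.54 (SE 0.19, adjusted p = 0.812), Thbs1 0.35 (SE 0.12), Wisp1 0.29, Tnc 0.26 and Thbs2 0.23. Cyr61 and Sparc had 0.18 each and Ctgf 0.15. Without shLuc replicate 2 the values ran from 0.14 for Cyr61 to 0.66 for Postn, with a median of 0.24. With 3 libraries against 2, an exact permutation test cannot give a p below 0.1.

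The shEtnk1/2 library was also compared with each other treated library, 1 against 1. These differences do not involve the shLuc levels, but limma took the spread from the shLuc pair, so the p-values assume that spread for libraries whose own was not measured, and no library could be left out. Thbs1 had a higher value in shEtnk1/2 than in shPcyt2 (0.40, SE 0.08, adjusted p = 0.0442), the only member called, where 0.921% of tested genes were called (0.168% higher). That call held in 2 of 6 alternatives, with adjusted p up to 0.395, and limma-voom called 5 members. Sparc had a higher value than in Etn-deprived (0.37, SE 0.06, adjusted p = 0.0272), again the only member called (0.854% of tested genes, 0.477% higher), and that call held in 4 of 6 alternatives, with adjusted p up to 0.319. Against shPebp1 the calls were Postn (1.17, SE 0.12, adjusted p = 0.00979), Thbs1 (0.79, adjusted p = 0.000972), Tnc (0.61, adjusted p = 0.00611), Sparc (0.46, adjusted p = 0.00614) and Thbs2 (0.45, adjusted p = 0.023), 5 members where 2.72% of tested genes were called (1.27% higher). Each of these 5 calls held in 5 of 6 alternatives and was lost without the filter on low values. For Postn the difference was 0.63 from shPcyt2 (95% interval 0.34 to 0.93, adjusted p = 0.0916) and 0.47 from Etn-deprived (0.17 to 0.76, adjusted p = 0.181). Ctgf differed from shPcyt2 by 0.0086, with an interval of -0.23 to 0.25.

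Other genes were described from lists, beside all tested genes, of which 35.7% had a higher value in shEtnk1/2 than the shLuc mean, 1.09% were called higher and 2.37% lower. No list gene was called in shEtnk1/2 without shLuc replicate 2, though all those called with it kept their direction. Of 22 other secreted proteins of the same class, 14 were expressed highly enough to be tested. In shEtnk1/2 12 of the 14 were higher, with a median of 0.29 (0.22 without shLuc replicate 2). Spp1 (osteopontin), which binds integrins in bone, had 9.93 and 11.9 RPKM in shLuc and rose to 18.7 (0.73, SE 0.12, adjusted p = 0.0132), and Smoc2, a relative of Sparc, rose to 12.3 against 8.53 and 7.34 RPKM (0.58, adjusted p = 0.0336). Spock2, a proteoglycan of the same family, fell to 7.43 against 10.3 and 12.0 RPKM (-0.53, adjusted p = 0.043). Tnn, another tenascin, had 3.18 RPKM against 1.71 and 2.13 (0.52, adjusted p = 0.143). The largest mean in the list was that of Fstl1, at 871 RPKM. In Etn-deprived Spp1 rose to 17.8 RPKM (0.67, adjusted p = 0.0153) and was the only one of the 14 called, where 0.586% of tested genes were called higher. Without shLuc replicate 2 it was not called (0.78, adjusted p = 0.167). None was called in shPcyt2 or shPebp1.

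Collagens and other fibres that these proteins bind were also higher in shEtnk1/2. Of 10 fibrillar collagens, crosslinking enzymes and other matrix partners, all 10 were higher and 7 were called higher, with a median of 0.34 (0.35 without shLuc replicate 2). Col1a1 had 2322 and 2523 RPKM in shLuc and 3600.1 in shEtnk1/2 (0.57, SE 0.06, adjusted p = 0.00291). Col12a1 rose by 0.57 on the log2 scale (adjusted p = 0.00292), Lox, the enzyme that crosslinks collagen, by 0.56 (adjusted p = 0.00299) and Col5a2 by 0.37 (adjusted p = 0.0132), with Col1a2, Col3a1 and Col5a1 the other three. In Etn-deprived 2 of the 10 were called, Lox (0.36, adjusted p = 0.017) and Col12a1 (0.33, adjusted p = 0.0219), and neither without shLuc replicate 2. In shPebp1 all 10 were lower than the shLuc mean where 53.1% of tested genes were higher, and none was called, with a median of -0.11. Whether this list differed from the members was not tested.

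Among receptors, 16 of 18 tested genes had a higher value in shEtnk1/2, with a median of 0.14 (0.12 without shLuc replicate 2). Itgb1, the beta subunit shared by most matrix-binding integrins, was called, at 302 RPKM against 250.2 and 252 (0.27, SE 0.06, adjusted p = 0.0453). Itga8 had 3.84 RPKM against 2.10 and 2.65 (0.52, adjusted p = 0.13). None of the 18 was called against shLuc in shPcyt2, Etn-deprived or shPebp1.

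Ligands, receptors and Smads of TGF-beta numbered 14, of which 12 were higher in shEtnk1/2 (median 0.14, and 0.15 without shLuc replicate 2) and 1 was called. This was Tgfb3, a ligand, at 59.4 RPKM against 40.4 and 41.3 (0.53, SE 0.08, adjusted p = 0.00754). Smad6, an inhibitor of the BMP branch, had 4.05 against 2.17 and 2.41 RPKM (0.62, adjusted p = 0.0672). Of 18 TGF-beta targets, 16 were higher (median 0.31, and 0.34 without shLuc replicate 2) and 3 were called, Col1a1, the integrin gene Itga11 (0.57, adjusted p = 0.0164) and Id3 (0.44, adjusted p = 0.0121). Tagln (0.72, adjusted p = 0.375) and Acta2 (0.64, adjusted p = 0.389) had the largest differences of the list and did not pass. Tagln had 68.8 and 92.7 RPKM in the shLuc libraries and 132 in shEtnk1/2. In Etn-deprived 13 of the 18 targets were higher (46.9% of tested genes were). Id1 was the only target called there (3.8% of tested genes were, in either direction), and it fell, with 38.1 RPKM against 53.5 and 54.0.

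Targets of YAP and TAZ other than Ctgf and Cyr61 had a median of 0.04 in shEtnk1/2 (0.08 without shLuc replicate 2), with 12 of 19 higher. None was called higher, and Nt5e fell, with 62.1 RPKM against 82.1 and 75.7 (-0.34, SE 0.08, adjusted p = 0.0417). Ankrd1, the target with the largest difference, had 1.98 RPKM in shEtnk1/2 against 0.534 and 1.21 (0.69, adjusted p = 0.173), 2.11 in shPcyt2, 2.22 in Etn-deprived and 0.213 in shPebp1. The Hippo kinases, YAP, TAZ and TEAD genes had a median of -0.01, with 7 of 15 higher and none called. Without shLuc replicate 2 their median was 0.04, with 9 of 15 higher. Tead2 had 77.2 RPKM against 88.3 and 91.3 (-0.22, adjusted p = 0.125). Of 13 genes of SRF, its cofactors and contractile targets, 12 were higher in shEtnk1/2 (median 0.32, and 0.38 without shLuc replicate 2) and 2 were called, Tpm2 (0.49, adjusted p = 0.0183) and Cnn2 (0.38, adjusted p = 0.0136). The largest differences, of Cnn1, Tagln, Acta2 and Myl9, did not pass, and Cnn1 had 1.92 and 4.48 RPKM in shLuc. Tagln and Acta2 also stand on the list of TGF-beta targets, and with Cnn1 and Actg2 on that of smooth muscle markers. Immediate early genes, which respond to serum and growth factors as Cyr61 can, had a median of -0.09 (-0.07 without shLuc replicate 2). Of these 4 of 12 were higher, near the share of all tested genes, and none was called. Dusp1 at -0.33 and Ier3 at -0.26 were the furthest from 0.

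**Figure D3:**
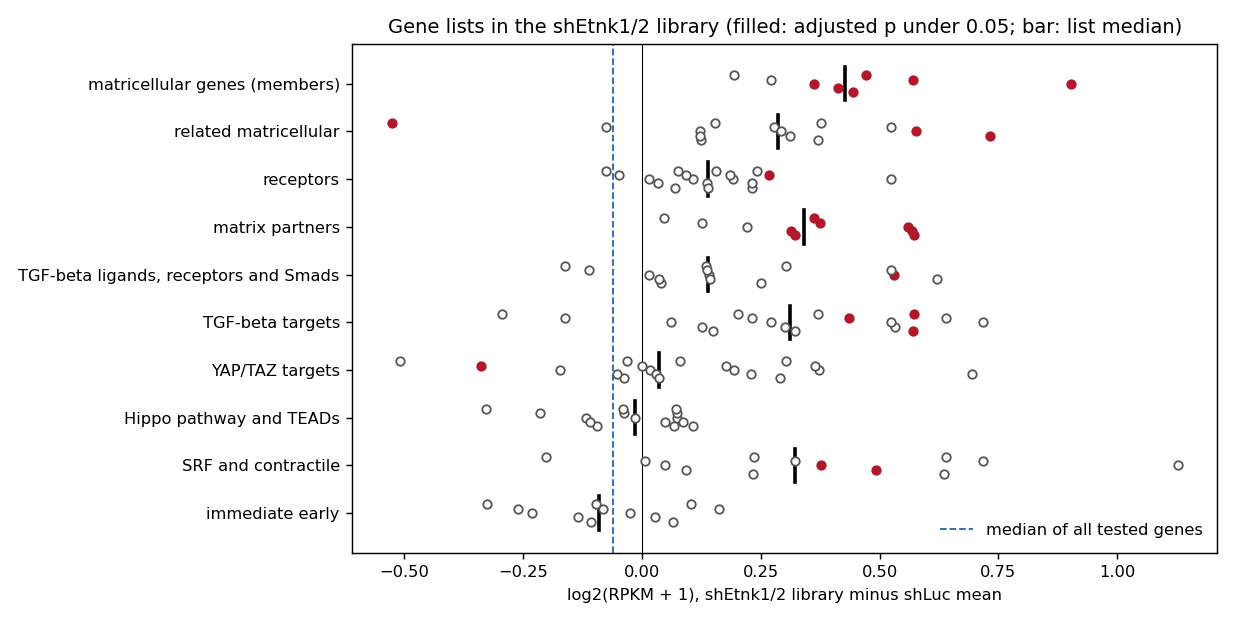
Log2 difference of the shEtnk1/2 library from the shLuc mean (x axis, log2(RPKM + 1) units) for the tested genes of each list (rows). Filled red points passed an adjusted p of 0.05, black bars are list medians, and the dashed line is the median of all tested genes at -0.06. The matricellular members (median 0.43) and the matrix partners (0.34) lie to the right, and the immediate early genes (-0.09) lie near the dashed line.

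All 11 fibroblast markers were higher in shEtnk1/2 than the shLuc mean, and 10 of 11 without shLuc replicate 2. S100a4, at 75.6 RPKM, lay between the shLuc values of 83.8 and 67.3. Of the 11, 6 were called, 3 of them collagens named above, with Lum (0.62, adjusted p = 0.00154), Dcn and Pdgfra the others. Summed markers of some other cell types also differed between the libraries. The summed RPKM of the smooth muscle list (6 genes, 5 of them at a mean of at least 1 RPKM, with Myh11 under it) was 315 and 407 in shLuc, 524 in shEtnk1/2, 435 in shPcyt2, 392 in Etn-deprived and 300.5 in shPebp1. The macrophage list, carried mostly by Lyz2 (43.0 RPKM on average), summed to 50.02 and 52.3 in shLuc, 62.7 in shEtnk1/2 and 47.2 to 51.2 in the other treated libraries. Neural and glial markers summed to 70.5 and 75.5 in shLuc, 56.7 in shEtnk1/2 and 69.1 to 82.7 in the others. Their part in the members' differences was not tested.

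The profile over the 6 libraries on the log2 scale was compared with that of 569 genes, those with a mean of at least 10 RPKM and a range of at least 0.5. Likeness is Pearson's r over the 6 libraries, which all genes share, and describes these libraries only. Most like Postn were Tnc (0.996), Lrrc15 (0.992), and Ogn, a small leucine-rich proteoglycan (0.988), and Plat, tissue plasminogen activator, was also among the first 5 (0.979). Most like Tnc were Postn, Ogn (0.991), Lox (0.983) and Lrrc15 (0.981). Ctgf had another set, Tpm1, a tropomyosin (0.981), Cdkn2b, a cell cycle inhibitor (0.978), P4ha3, a collagen hydroxylase (0.968), Itm2a (0.960) and Mfge8 (0.958). No gene stood on the lists of both Postn and Ctgf. The lowest and highest values of Ctgf itself lay only 1.26-fold apart, less than the range asked of the compared genes. They rest on 640 to 853 reads, and the counting intervals of shPcyt2 (16.7 to 19.1 RPKM) and Etn-deprived (15.4 to 17.8) overlapped. Ogn, for example, had 24.9 and 28.2 RPKM in shLuc, 47.4 in shEtnk1/2, 32.9 in shPcyt2, 38.0 in Etn-deprived and 20.6 in shPebp1. Tpm1 had 153 and 170.2 in shLuc, 202 in shEtnk1/2, 195 in shPcyt2, 176 in Etn-deprived and 137 in shPebp1. Both were thus lowest in shPebp1 and highest in shEtnk1/2, and they had Etn-deprived and shPcyt2 in opposite order. Etn-deprived and shPcyt2 had opposite trends with gene length, as given above. Ctgf (2402 nt) has a shorter gene model than Postn (3295 nt) and Tnc (7100 nt), and the part of length in these profiles was not tested.

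**Figure D4:**
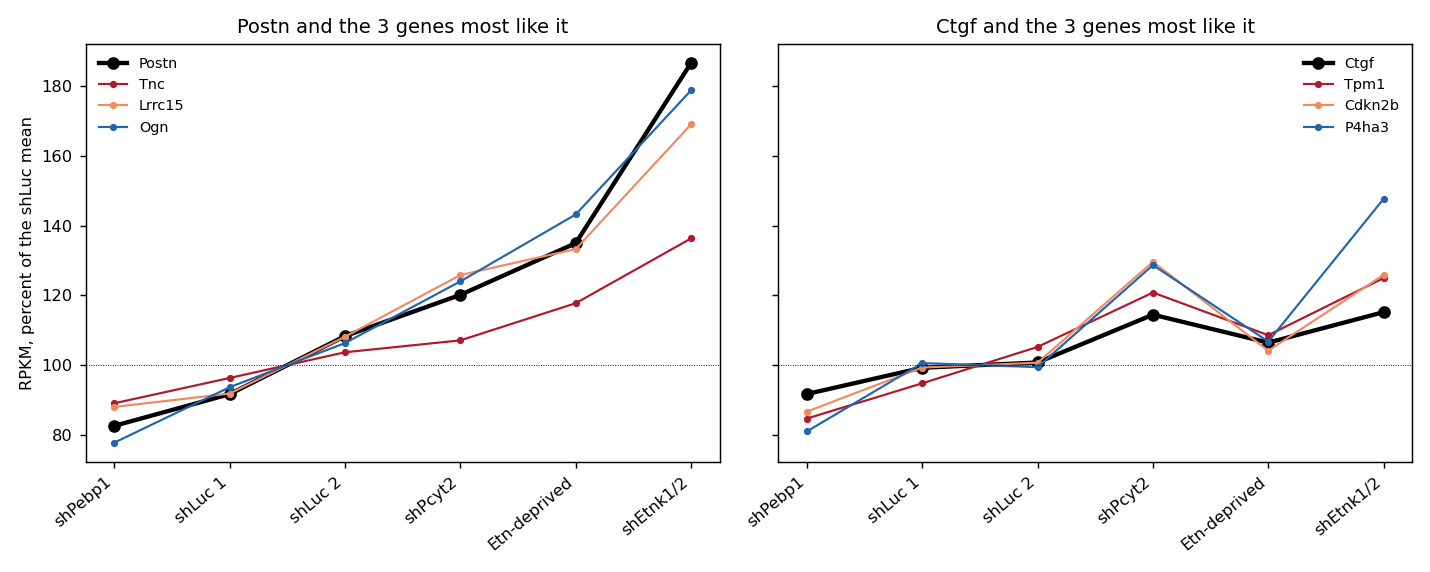
RPKM as a percentage of the shLuc mean (y axis) in the 6 libraries (x axis) for Postn (left) and Ctgf (right), each in black, with the 3 genes most like it. Lines only join the values of a gene. On the left Postn goes from 82.6% in shPebp1 to 187% in shEtnk1/2 with Etn-deprived (135%) above shPcyt2 (120%). On the right Ctgf has shPcyt2 (114%) above Etn-deprived (106%), with overlapping counting intervals.

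The authors' deposited table also annotates each gene. The term cell adhesion was given to 6 of 8 (Postn, Thbs1, Thbs2, Tnc, Wisp1 and Cyr61) and to 1.62% of tested genes. Heparin binding was given to 6 (0.637% of tested genes) and integrin binding to 4, Thbs1, Wisp1, Ctgf and Cyr61 (0.486%). Sparc, Thbs1 and Thbs2 carried calcium ion binding (2.81%), negative regulation of angiogenesis (0.285%) and platelet alpha granule (0.0586%). The leading Pfam domain was the fasciclin domain in Postn, the SPARC calcium-binding domain in Sparc, the thrombospondin C-terminal domain in both thrombospondins, the fibrinogen C-terminal domain in Tnc, the cystine knot in Ctgf and Cyr61 and the IGF-binding domain in Wisp1.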

How the data were processed

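RNA was selected for poly(A) and read as paired ends, per the labels' protocols. The authors deposited 1 RPKM value per gene and library. Alignment used Bowtie 0.12.2 and mm10, per the submitters' processing notes, while the sources used here give no gene models, counting program or strand setting. Whole reads were recovered for 100.0% of the 18303 genes (within 1e-05 reads plus a relative 5e-09) and gave model lengths. The 11939 genes averaging 1 RPKM or more were tested as log2(RPKM + 1), which understates changes of low genes, with limma 3.58.1 (R 4.3.3; trended, robust, two-sided, Benjamini-Hochberg over all tested genes, threshold 0.05). The fit had 5 group means, 1 residual degree of freedom from the shLuc pair and a prior of 9.24, which assumes the same spread in the treated libraries. For 3 libraries against 2, the residual degrees of freedom were 3 and the prior 6.37. Only the main fit of shEtnk1/2 against shLuc was tested on simulated data. That simulation gave all libraries the same spread, so it does not check this assumption. Precision is limited by the number of libraries. Members, lists and tests were chosen with earlier results of these data known. Named genes were the members, the targeted genes, up to 4 genes per list with the largest differences, other called list genes, Fstl1 and Lyz2 (chosen after their values were seen) and the 5 genes most like Postn, Tnc and Ctgf, of which 1 is not reported here. Alternatives were another pseudocount, no filter, 2 scalings, limma-voom, removal of a length trend and leaving out libraries.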

Additional observations from a re-analysis of the deposited data

Results flagged for a closer look

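The difference between treatments itself passed the limma test for 7 pairs of member and comparison, with the spread taken from the shLuc pair. Thbs1 had a higher value in shEtnk1/2 than in shPcyt2 by 0.40 (log2 scale, adjusted p = 0.0442), a call held in 2 of 6 alternatives, and Sparc than in Etn-deprived by 0.37 (adjusted p = 0.0272), held in 4 of 6. Against shPebp1, Postn was higher by 1.17, Thbs1 by 0.79, Tnc by 0.61, Sparc by 0.46 and Thbs2 by 0.45. Those 5 calls were lost without the filter on low values. Each value compares 1 library with 1 library, so no spread within either treatment entered the test, and the pair that gave it holds the library that goes against its label.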

How the results depend on the processing

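No paired analysis was possible because only shLuc carries replicate numbers. Of 488 single differences recomputed, 482 kept their direction. The other 6 were near 0: Sparc in Etn-deprived, at 0.014 with median ratio scaling, 0.044 with quantile normalization, 0.011 with the length trend removed and -0.032 to 0.025 without a shLuc library; Thbs2 in shPebp1, at -0.091 to 0.023 without a shLuc library; and Wisp1 in shPebp1, at -0.11 to 0.10. Of 61 recomputed counts of members called, 41 stayed within 1.5 times. Without the filter, 0 members were called in shEtnk1/2 (6 with it), in Etn-deprived (1 with it), and in shEtnk1/2 against shPcyt2, Etn-deprived and shPebp1 (1, 1 and 5 with it); limma then called 0 of 18301 genes in these single comparisons, and the cause was not tested. With limma-voom 1 member was called in shPcyt2, 4 in Etn-deprived, and 5 and 3 in shEtnk1/2 against shPcyt2 and Etn-deprived. Replication behind these calls too comes from the shLuc pair alone. With median ratio scaling, quantile normalization or the length trend removed, 0 were called in Etn-deprived and in shEtnk1/2 against shPcyt2, and quantile normalization also gave 0 against Etn-deprived. Leaving out either shLuc library gave 0 to 0 members in shEtnk1/2 and in Etn-deprived, where the fit has fewer samples and takes its spread from other treatments. In the comparison of 3 against 2 libraries 0 were called whichever library was left out. Genes called in all went from 413 in shEtnk1/2 to 788 with limma-voom, 144 with the length trend removed, and 3 and 5 without shLuc replicates 1 and 2, and from 454 in Etn-deprived to 700, 47, 15 and 20.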
